A study of Mus musculus with 6 samples.

Results

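The TRIM genes encode proteins built on a tripartite motif, a RING finger followed by B-boxes and a coiled coil, and most of them act as E3 ubiquitin ligases. They were examined here in BV2, an immortalized mouse microglial line, with lowered TonEBP, the osmoregulatory transcription factor encoded by Nfat5. Members were taken by name, as every mouse symbol made of Trim, a number and an optional letter, which gave 68 genes among the 21899 in the table of raw read counts. The 4 members tied to interferon, Trim21, Trim25, Trim30a and Trim34a, were set against the other 64.

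The RNA-seq set 3 libraries of BV2 cells transduced with a control shRNA of scrambled sequence (group sh-NC) against 3 of BV2 cells transduced with an shRNA to Nfat5 (group sh-TonEBP). Both shRNAs were delivered by lentivirus with puromycin selection, the labels name no stimulus, and a single shRNA against Nfat5 stands for the knockdown. Whether each library had its own culture is not stated, so a p-value here reflects the spread among these libraries, possibly a technical one. The libraries held 13621188 to 16140042 counts. Nfat5 had 9641 to 11640 counts in sh-NC and 3894 to 5257 in sh-TonEBP. Among 10 markers of microglia, 6 had at most 3 counts in any library, Aif1, Itgam, P2ry12, Trem2, Spi1 and Ptprc. The summed level of those 10 markers, scaled by library totals like the sums that follow, was 43.3 to 53.8 CPM in sh-NC and 63.9 to 80.7 CPM in sh-TonEBP. That of 8 fibroblast markers was 473 to 506 CPM in sh-NC and 1547 to 1708 CPM in sh-TonEBP, and that of 6 epithelial markers, mostly Krt8, was 604 to 753 CPM in sh-NC and 1193 to 1501 CPM in sh-TonEBP. In bulk RNA, a change in the makeup of the cells and a change in RNA per cell cannot be told apart, and the part of these marker shifts in the TRIM results was not tested.

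TRIM proteins are sorted by what follows the tripartite motif. Members with a SPRY domain, which binds a target protein, include TRIM21, a cytosolic antibody receptor, and TRIM25, a ligase for the viral RNA sensor RIG-I. The TIF1 members carry a PHD finger and a bromodomain and work on chromatin, and other members carry NHL repeats, a microtubule-binding COS box, or membrane anchors. Interferon induces a subset of TRIM genes in macrophages and other cells, and in the mouse several of these lie in a cluster of paralogs on chromosome 7.

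The family was expressed over a wide range. Of the 68 members, 48 passed the filter on low counts (edgeR filterByExpr) and were tested, and 20 did not. Among those 20, Trim30c, Trim42, Trim52, Trim58 and Trim60 had 0 counts in every library, and 3 counts, the upper limit that a count of 0 allows, correspond to 0.186 to 0.220 CPM, that is counts scaled to the library total, for counting error alone. The other 15 had at most 10 counts in a library, the highest being Trim63, which encodes a muscle ligase. A difference in these 20 genes was not detectable at this depth. Levels between genes were compared as CPM per kilobase of the longest transcript, with CPM normalized by TMM. TMM scales each library on the assumption that most genes do not change between libraries. In sh-NC, Trim28 stood highest at 53.0 CPM per kilobase, followed by Trim24 at 45.7, Trim59 at 32.9 and Trim27 at 23.6. Trim25 was sixth at 19.8, while Trim21, Trim30a and Trim34a stood at 1.60, 1.15 and 0.777. Of the interferon-linked members, Trim25 was thus the abundant member and the other 3 were low.

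In the comparison of sh-TonEBP with sh-NC, 10 TRIM genes rose, 10 fell and 28 did not pass the test (edgeR quasi-likelihood test, adjusted p under 0.05 after Benjamini-Hochberg adjustment over 11943 genes). The 20 called members are 41.7% of the 48 tested, where 52.5% of all genes tested were called, 26.3% higher and 26.2% lower. The groups did not overlap for 23 of the 48 members, against 62.7% of all genes. The TRIM family as a whole therefore held no larger share of calls than the background. All 4 interferon-linked members rose. Of the other 44 tested, 6 rose and 10 fell. The median log2 fold change was 0.79 over the 4 interferon-linked members, -0.20 over the others and 0.00072 over all genes tested. Since the set of 4 was named with earlier results of these data known, the contrast is a description.

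**Figure D1:**
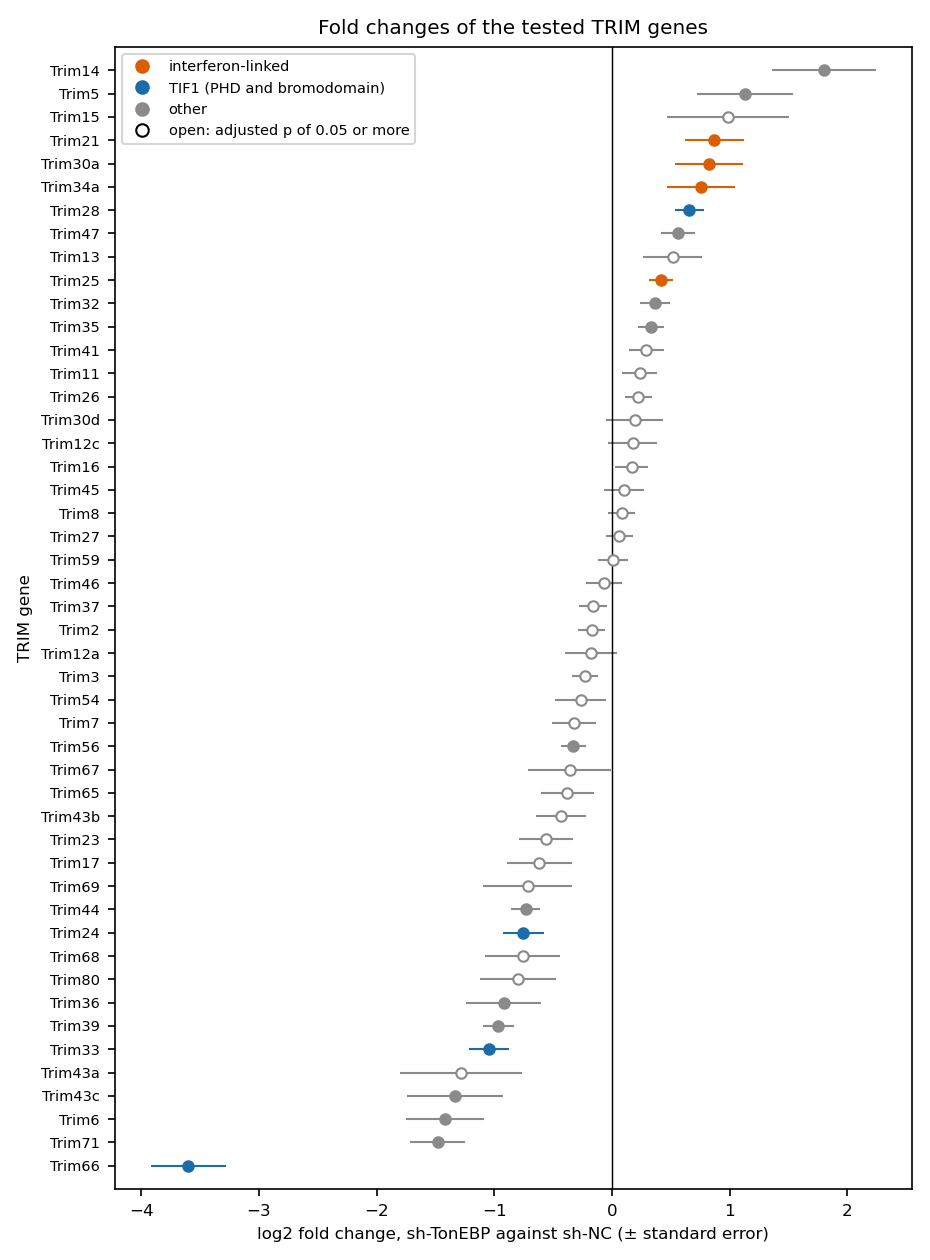
Log2 fold change of each of the 48 tested TRIM genes in sh-TonEBP against sh-NC, with its standard error; orange marks the interferon-linked members, blue the TIF1 members and grey the rest, and open circles did not pass an adjusted p of 0.05. The filled points number 10 on each side of 0, with Trim66 at -3.60 and Trim14 at 1.80 as the ends of the range. Both passed the filter on low counts through the group where they are higher.

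TRIM21 binds antibody-coated virus in the cytosol and ubiquitinates it. Trim21 stood at 3.34, 3.71 and 6.33 CPM across sh-NC, against 6.83, 8.36 and 9.29 CPM across sh-TonEBP. Every sh-TonEBP library lay above every sh-NC library, although sh-NC replicate 3 came close to the lowest of them. The mean went from 4.46 ± 1.63 CPM in sh-NC to 8.16 ± 1.24 CPM in sh-TonEBP (SD over 3 libraries each), a log2 fold change of 0.87 ± 0.25 (SE, adjusted p = 0.012). TRIM25 ubiquitinates RIG-I and also serves as a ligase for the ubiquitin-like protein ISG15. Trim25 had 112, 108 and 112 CPM across sh-NC, against 149.7, 142 and 152 CPM across sh-TonEBP. Its libraries were tightly grouped with a wide gap between the groups, a log2 fold change of 0.42 ± 0.10 (SE, adjusted p = 0.0048).

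TRIM30a, a mouse protein, restrains Toll-like receptor signaling through degradation of TAB2 and TAB3. Trim30a stood at 3.66, 4.64 and 4.73 CPM across sh-NC, against 4.51, 7.61 and 11.1 CPM across sh-TonEBP. The groups overlapped, since sh-TonEBP replicate 1 lay inside the range of sh-NC, and the other sh-TonEBP libraries lay above it. The log2 fold change of 0.83 ± 0.29 (SE, adjusted p = 0.031) was lowest without sh-TonEBP replicate 3, at 0.48 (adjusted p = 0.15). Trim34a, a neighbor in the same cluster, had 31, 34 and 28 counts across sh-NC, against 37, 62 and 56 across sh-TonEBP. The groups did not overlap but came near in sh-TonEBP replicate 1, with a log2 fold change of 0.76 ± 0.29 (SE, adjusted p = 0.043).

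The calls of Trim30a and Trim34a were not stable. Leaving out any of 5 of the 6 libraries (sh-NC replicate 1, 2 or 3, or sh-TonEBP replicate 2 or 3) left 2 of the 4 interferon-linked members called, Trim21 and Trim25, and leaving out sh-TonEBP replicate 1 left 4. In all 12 alternative fits Trim21 and Trim25 were called, against 7 for Trim30a and 6 for Trim34a. Trim34a shares 21.0% of its 100-base windows with its paralog Trim34b and has 23.5% of its exon bases under the antisense gene Gm47248 in GENCODE M21. Trim34b itself had at most 1 count in a library. Since the strand setting and the handling of shared reads are not given, the counts of Trim34a are uncertain to that extent.

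Around them in the cluster lie Trim5, Trim6, Trim12a, Trim12c and further Trim30 and Trim34 copies. Of the 10 cluster genes 7 were tested, and 3 rose (Trim5, Trim30a and Trim34a), 1 fell (Trim6) and 3 did not pass, so 57.1% were called, near the 52.5% of all genes. TRIM5 is known in primates for restricting retroviral capsids. Trim5 had 18, 20 and 11 counts across sh-NC, against 21, 35 and 49 across sh-TonEBP. The groups overlapped, with sh-TonEBP replicate 1 just under the highest sh-NC library in CPM, and the log2 fold change of 1.13 ± 0.41 (SE, adjusted p = 0.035) went to 0.73 (adjusted p = 0.16) without sh-TonEBP replicate 3. It lost the call without sh-NC replicate 1 or 3 or sh-TonEBP replicate 2 as well. Trim12a, Trim12c and Trim30d did not pass, at -0.18, 0.18 and 0.19 on the log2 scale. Trim5 shares 11.7% of its 100-base windows with other genes, Trim12c 8.05% and Trim30a 4.41%.

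Trim6 went the other way. TRIM6 makes unanchored ubiquitin chains that serve the kinase IKKε in human cells. Trim6 stood at 4.55, 3.12 and 4.80 CPM across sh-NC, against 0.940, 1.45 and 2.30 CPM across sh-TonEBP. Every sh-TonEBP library lay below every sh-NC library, a log2 fold change of -1.42 ± 0.33 (SE, adjusted p = 0.0035). The count ratio of Trim21 to Trim6, which does not depend on the scaling between libraries, was 0.732, 1.19 and 1.32 in sh-NC and 7.27, 5.78 and 4.03 in sh-TonEBP. The ratio of Trim25 to Trim56, which encodes a ligase with antiviral roles, was 0.687, 0.724 and 0.659 in sh-NC and 1.16, 1.15 and 1.15 in sh-TonEBP, with no correction for transcript length, under which Trim56 turns to 0.097 on the log2 scale. Both pairs set a member that rose over one that fell, each without overlap of the groups. The higher ratios in sh-TonEBP follow from those changes and are no further evidence.

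**Figure D2:**
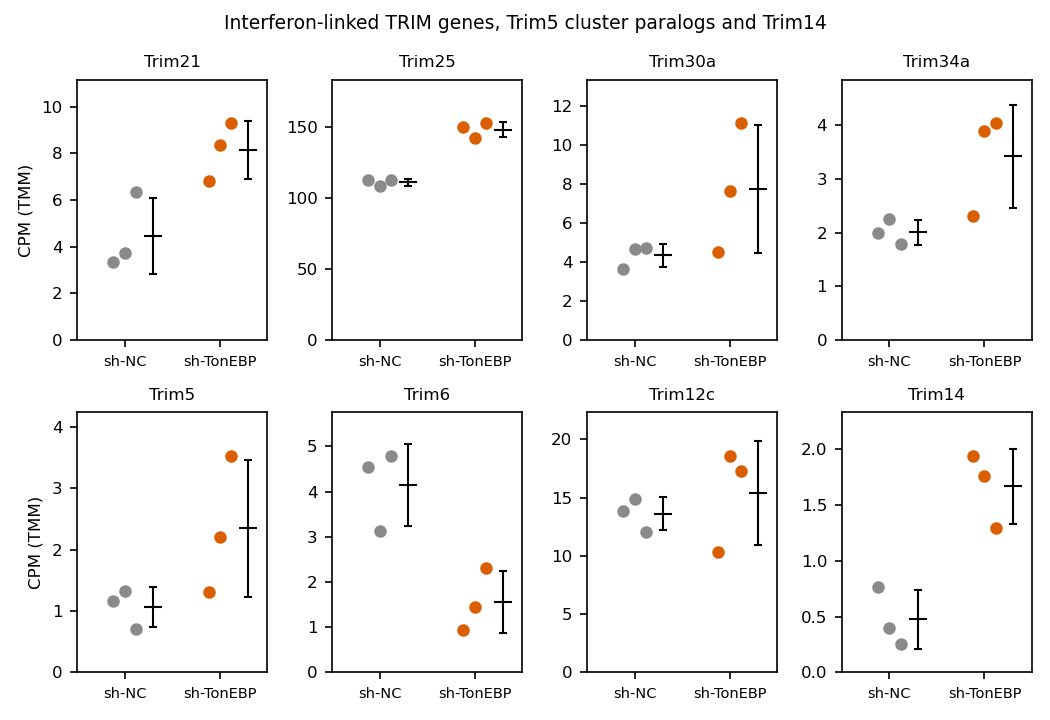
TMM-normalized CPM in each library for the 4 interferon-linked members, 3 cluster neighbors and Trim14, with each y axis starting at 0; grey points are sh-NC, orange points sh-TonEBP, and the black bars give the mean and SD of 3 libraries. The groups are apart for Trim21, Trim25, Trim34a, Trim6 and Trim14 and overlap for Trim30a, Trim5 and Trim12c.

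Promoter sequence was compared between members, because interferon acts on genes through an element called ISRE. RefSeq windows of 300 bases (250 before and 50 after an annotated start, GRCm38.p6) were matched by symbol for 53 of the 68 members, 67 windows in all, and searched on both strands. The ISRE core, which is 2 copies of GAAA with any 2 bases between them, was found in 10 of the 67 windows (14.9%), where 3.44% of all 32851 windows hold it. By gene it was found in 9 of 53 members, against 1079 of 27025 genes. Most of these windows belong to neighboring paralogs of the chromosome 7 cluster, and only Trim2, Trim21 and Trim26 lie outside it. The windows are therefore not independent, and the share is no measure of the family as a whole. It was found in 4 of the 5 windows of the interferon-linked members, those of Trim21, Trim30a (both starts) and Trim34a, and not in that of Trim25. Of the members that rose, the core was found in Trim21, Trim30a, Trim34a and Trim5 among 8 with a window. Of the members that fell, 7 had a window and 0 of their 10 windows held it, which is not unusual where 3.44% of all windows do. Trim12a, Trim12c, Trim30d, Trim2 and Trim26 held it and did not pass the test. The following stretches show the match in the members that rose and in Trim12c and Trim30d, 2 paralogs that did not pass, in capitals, in up to 100 bases that end no further than 30 bases after the start. Read on the other strand the core shows as copies of TTTC, and overlapping matches run together.
Trim21 (chr7:102565453-102565514, minus strand): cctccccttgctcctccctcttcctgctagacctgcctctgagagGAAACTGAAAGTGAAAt
Trim34a (chr7:104244422-104244486, plus strand): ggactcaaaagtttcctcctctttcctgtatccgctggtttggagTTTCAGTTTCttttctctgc
Trim30a (chr7:104465175-104465274, minus strand): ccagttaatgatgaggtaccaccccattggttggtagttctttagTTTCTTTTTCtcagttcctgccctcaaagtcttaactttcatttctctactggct
Trim30d (chr7:104507836-104507935, minus strand): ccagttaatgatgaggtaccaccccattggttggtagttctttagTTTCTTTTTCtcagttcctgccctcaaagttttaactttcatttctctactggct
Trim5 (chr7:104288101-104288200, minus strand): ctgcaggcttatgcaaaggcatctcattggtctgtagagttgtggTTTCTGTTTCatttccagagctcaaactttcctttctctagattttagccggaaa
Trim12c (chr7:104353324-104353423, minus strand): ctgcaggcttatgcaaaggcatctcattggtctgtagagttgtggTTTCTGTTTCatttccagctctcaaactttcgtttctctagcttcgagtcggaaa

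Trim21 carries 2 overlapping matches, which begin 13 and 19 bases after the start. The match begins at offset 10 in Trim34a, at -36 in Trim30a and at -49 in Trim5, where negative offsets lie before the start. The paralogs are close copies of each other here. The stretches of Trim30a and Trim30d are alike at 99 of 100 positions and those of Trim5 and Trim12c at 93 of 100, although Trim30a and Trim5 passed the test and Trim30d and Trim12c did not. The difference in fold change between those paralogs was not tested. The core of a STAT site, TTCNNNGAA, was found in 10.4% of the member windows and 8.30% of all windows, and in 0 of the 5 windows of the interferon-linked members. The short core of the tonicity element, TGGAAA, was found in 19.4% of the member windows and 21.4% of all windows. A match is a run of letters and not a measured binding site.

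**Figure D3:**
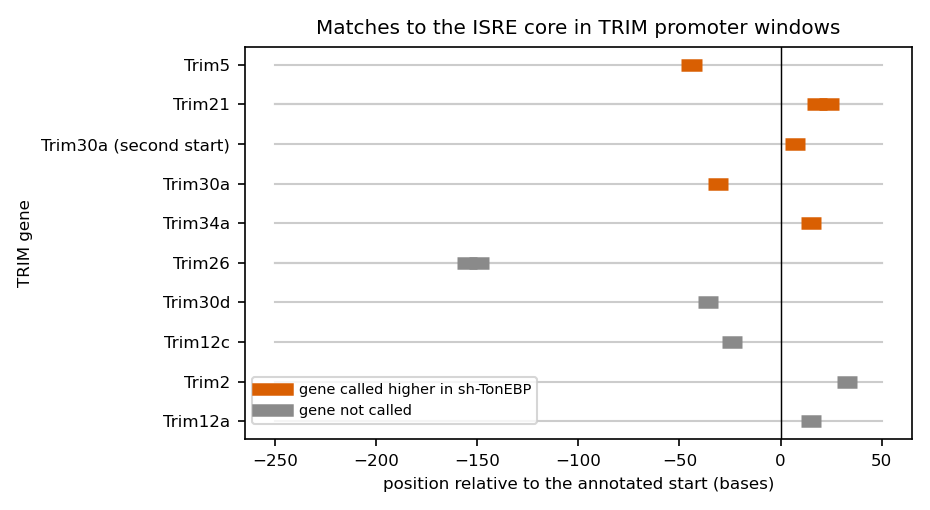
Position of each match to the ISRE core in the promoter windows of TRIM genes, in bases from the annotated start, with grey lines for the 300-base window; orange bars mark genes that rose in sh-TonEBP and grey bars genes that did not pass. Matches lie within 50 bases of the start in 8 of the 9 genes, and those of Trim26 begin at offsets of -160 and -154.

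Of 14 other members with roles in innate signaling 12 were tested, and 3 rose and 1 fell (33.3% called, against 52.5% of all genes). Trim14 encodes a protein without a RING finger that joins the signaling adaptor MAVS at mitochondria, and it showed the steepest rise of the tested members at a low level. It had 12, 6 and 4 counts across sh-NC, against 31, 28 and 18 across sh-TonEBP. Trim14 thus passed the filter on low counts through sh-TonEBP, the group where it is higher. Its rank among the tested members is therefore no measure of the whole family. Every sh-TonEBP library lay above every sh-NC library, a log2 fold change of 1.80 ± 0.44 (SE, adjusted p = 0.0047). In GENCODE M21, 38.0% of its exon bases lie under exons of the opposite strand, of Nans, Gm16731 and Gm22247, so reads of Trim14 are uncertain without a strand setting. Trim32, which encodes a ligase with NHL repeats, and Trim35 rose by 0.36 (adjusted p = 0.033) and 0.33 (adjusted p = 0.024). TRIM56 acts against RNA viruses, and Trim56 fell by 0.33 on the log2 scale (adjusted p = 0.020), a direction that turned to 0.097 once a trend on transcript length was removed. Trim32, Trim35 and Trim56 each lost the call when certain single libraries were left out, in 4, 3 and 3 of the 12 alternative fits. Trim8, Trim27, Trim26 and Trim41, all above 50 CPM, did not pass, with log2 fold changes of 0.061 to 0.29. At lower levels, Trim13, Trim23, Trim65 and Trim68 did not pass either, at 0.51, -0.56, -0.38 and -0.76. For Trim23 every sh-TonEBP library lay below every sh-NC library (adjusted p = 0.057), and DESeq2 and the replicate block called it lower.

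All 4 TIF1 genes were called, where 52.5% of all genes were, and they changed in opposite directions. TRIM28, also called KAP1, is the corepressor that KRAB zinc finger proteins recruit to silence chromatin. Trim28 stood at 176, 173 and 167 CPM across sh-NC, against 314, 229 and 271 CPM across sh-TonEBP. The sh-NC libraries were close together and every sh-TonEBP library lay above them, a log2 fold change of 0.66 ± 0.13 (SE, adjusted p = 0.0010). TRIM33 is a chromatin reader that binds SMAD proteins in TGF-β signaling. Trim33 stood at 124, 151 and 126 CPM across sh-NC, against 47.0, 68.3 and 79.0 CPM across sh-TonEBP. Every sh-TonEBP library lay below every sh-NC library, a log2 fold change of -1.04 ± 0.17 (SE, adjusted p = 0.00046). TRIM24 is a coregulator of nuclear receptors and a ligase for p53. Trim24 stood at 152, 243 and 159 CPM across sh-NC, against 93.3, 115 and 119.8 CPM across sh-TonEBP. The groups did not overlap, with sh-NC replicate 2 far above the other sh-NC libraries, and the log2 fold change of -0.75 ± 0.18 (SE, adjusted p = 0.0045) was -0.50 without that library (adjusted p = 0.0083).

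Trim66 showed the steepest fall of the tested members, and it passed the filter on low counts through sh-NC, the group where it is higher. TRIM66 is a TIF1 protein without a RING finger, known in the mouse from the testis. It had 103, 80 and 80 counts across sh-NC, against 6, 6 and 9 across sh-TonEBP, and its level went from 5.68 ± 0.812 CPM in sh-NC to 0.467 ± 0.157 CPM in sh-TonEBP (SD over 3 libraries each). The gap between the groups was wide beside the spread within each. The log2 fold change of -3.60 ± 0.32 (SE, adjusted p = 8.2e-06) kept its call in all 12 alternative fits, where it ran from -3.88 to -3.47. Within a library, the count ratio of Trim28 to Trim33 was 1.42, 1.15 and 1.33 in sh-NC and 6.67, 3.35 and 3.43 in sh-TonEBP. The ratio of Trim28 to Trim24 was 1.15, 0.715 and 1.05 in sh-NC and 3.36, 1.98 and 2.26 in sh-TonEBP. For both ratios every sh-TonEBP library lay above every sh-NC library, with sh-TonEBP replicate 1 highest. That separation follows from the rise of Trim28 and the falls of Trim33 and Trim24 given above, and is no further evidence.

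TRIM71 is an NHL protein of stem cells that binds RNA, and Trim71 stood at 7.06, 6.04 and 7.42 CPM across sh-NC, against 2.13, 2.08 and 3.17 CPM across sh-TonEBP. The groups were apart, a log2 fold change of -1.48 ± 0.24 (SE, adjusted p = 0.00032). Of the other NHL members, Trim2 and Trim3 did not pass (-0.17 and -0.23). The Trim43 copies are expressed in early mouse embryos. Trim43c had 60, 78 and 57 counts across sh-NC, against 16, 15 and 44 across sh-TonEBP. The groups did not overlap, but sh-TonEBP replicate 3 lay well above the other sh-TonEBP libraries, and the log2 fold change of -1.33 ± 0.41 (SE, adjusted p = 0.016) lost its call without sh-NC replicate 2, sh-TonEBP replicate 1 or sh-TonEBP replicate 2. Trim43a and Trim43b did not pass, at -1.28 and -0.44. Trim43a shares 13.4% of its 100-base windows with other genes and Trim43c 14.4%, and 38.6% of the exon bases of Trim43c lie under an antisense gene, so the split of reads between them is uncertain.

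Of the abundant members, Trim39, which encodes a ligase that stabilizes the pro-apoptotic protein MOAP-1, went from 81.1 ± 4.68 CPM in sh-NC to 41.5 ± 6.78 CPM in sh-TonEBP (SD over 3 libraries each), a log2 fold change of -0.97 ± 0.13 (SE, adjusted p = 0.00012). Trim44, whose product has a ubiquitin-binding zinc finger in place of the RING, fell by 0.73 on the log2 scale (adjusted p = 0.00049). Both groups of libraries were apart for Trim39 and for Trim44. Trim36, of the COS-box class that binds microtubules, fell by 0.92 (adjusted p = 0.029), with 32, 45 and 39 counts across sh-NC, against 16, 20 and 24 across sh-TonEBP, and it was called in 7 of the 12 alternative fits. Trim47, a SPRY member, went from 37.5 ± 3.70 CPM in sh-NC to 55.2 ± 9.55 CPM in sh-TonEBP (SD over 3 libraries each) and rose by 0.56 on the log2 scale (adjusted p = 0.0062). Trim37, a MATH member of centrosomes and peroxisomes, Trim59, which is anchored in membranes, and Trim16 did not pass, at -0.16, 0.0083 and 0.16.

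**Figure D4:**
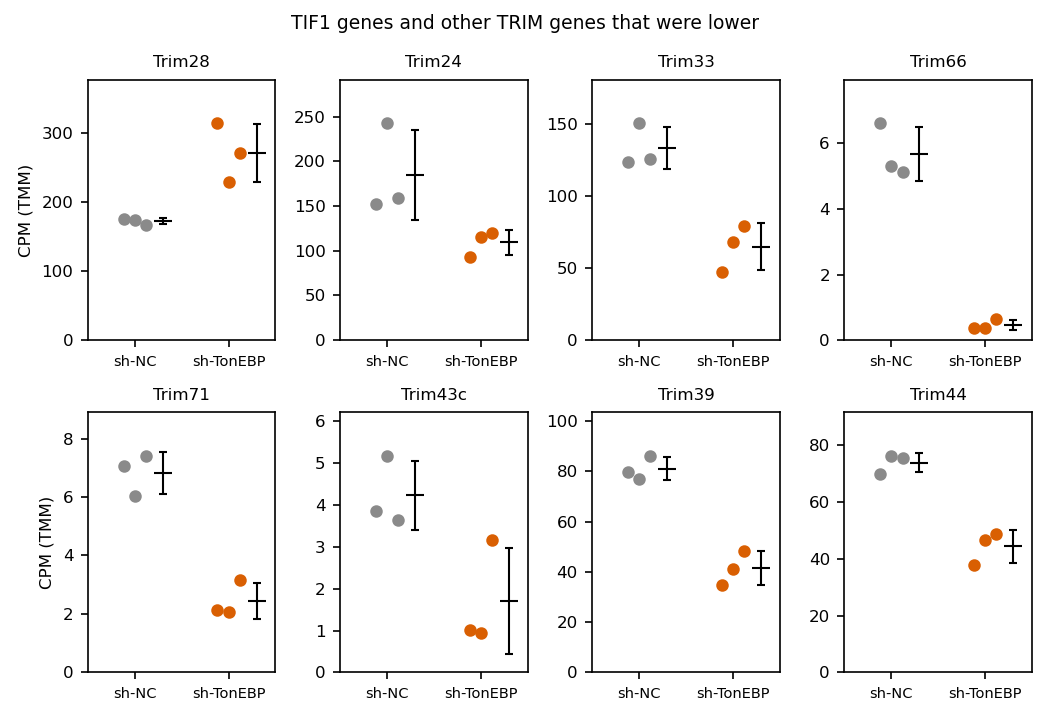
TMM-normalized CPM in each library for the 4 TIF1 genes and for Trim71, Trim43c, Trim39 and Trim44, with each y axis starting at 0; grey points are sh-NC, orange points sh-TonEBP, and the black bars give the mean and SD of 3 libraries. Trim28 is higher in every sh-TonEBP library and the other 7 genes are lower, with no overlap between the groups.

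By domain class, 8 of 27 tested SPRY members rose and 3 fell (40.7% called, below the 52.5% of all genes), with a median log2 fold change of 0.18. Of the 4 TIF1 members 1 rose and 3 fell (median -0.90), and of the 4 NHL members 1 rose and 1 fell, a share near that of all genes (median -0.20). Of the 4 tested members with a COS box 1 fell and 0 rose. Of 4 tested members that lack a RING finger, Trim14 rose, Trim44 and Trim66 fell and Trim16 did not pass. With 4 tested members each, the shares called in the TIF1, COS-box and RING-less classes say little beside the 52.5% of all genes.

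Transcript length moved with the direction of change. Across all genes tested, the median log2 fold change ran from 0.54 in the shortest of 20 equal bins, with a median longest transcript of 880 bases, to -0.50 in the longest bin, with one of 10082 bases. The 10 members that rose had a median longest transcript of 3219.5 bases and the 10 that fell one of 5165 bases, where the median over all genes tested was 3432 bases. Trim33, Trim56, Trim66 and Trim71 were the longest of the called members, at 8875 to 9332 bases. With a smooth trend on length over all genes removed, the median of the 48 members went from -0.17 to 0.036. Trim56 turned from -0.33 to 0.097, while the other 19 called members kept their direction. Trim33 was then -0.64, Trim66 -3.18, Trim71 -1.05 and Trim28 0.64, and the interferon-linked members had a median of 0.73. Trim25, with 5590 bases a long transcript among those that rose, went from 0.42 to 0.61.

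**Figure D5:**
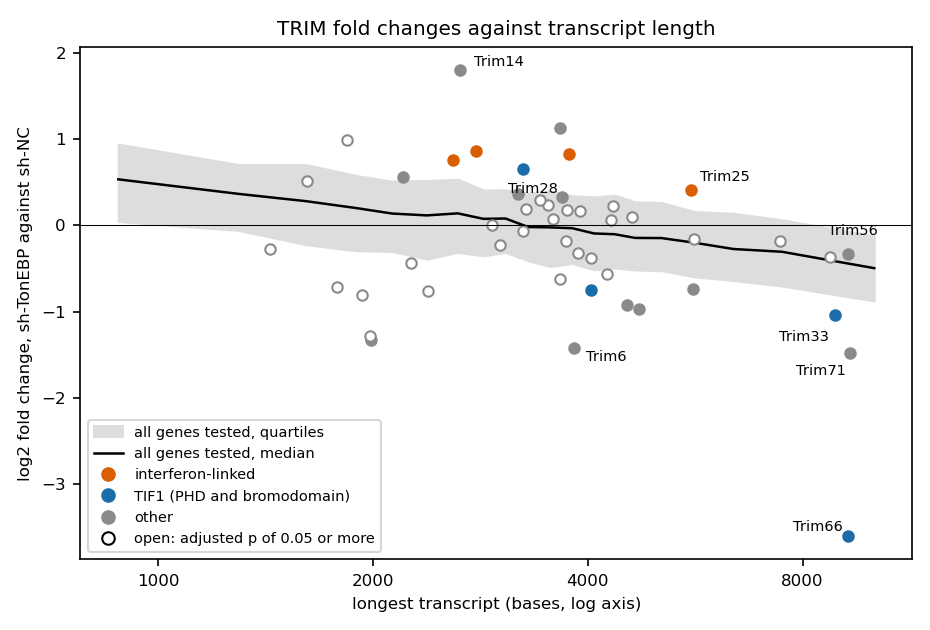
Log2 fold change in sh-TonEBP against sh-NC over the length of the longest transcript (log axis) for the 48 tested TRIM genes, with the median (line) and quartiles (band) of all 11943 genes in 20 bins of length; colors are as in the plot of fold changes and open circles did not pass. The line falls from 0.54 to -0.50, and Trim66, Trim71 and Trim33 lie below the band at the long end while Trim25 lies above it.

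The genes around the interferon-linked members were taken from lists. Of 9 genes of the interferon receptor and its transducers 5 rose and 0 fell (55.6% called, near the 52.5% of all genes, median log2 fold change 0.47). The list was led by Irf7, an interferon-induced transcription factor, at 2.78 on the log2 scale, with Irf1 at 0.93 and Stat2 at 0.58. Irf7 was low in sh-NC, with 27, 8 and 35 counts, against 156, 146 and 170 across sh-TonEBP. Pml, the nuclear body gene also known as Trim19, rose by 0.50 (adjusted p = 0.0037), and the TRIM genes Mid1, Mid2, Mefv, Triml1 and Triml2 were under the filter. Of 8 partners of TRIM25 and TRIM21, 5 rose and 2 fell (87.5% called, against 52.5% of all genes, median 1.01). That list is short and was chosen with earlier results of these data known, so its share is a description. Isg15, the modifier that TRIM25 can attach, rose by 3.27 from a low level. It had 36, 11 and 24 counts across sh-NC, against 193, 237 and 242 across sh-TonEBP. Ube2l6, the conjugating enzyme of ISG15, rose by 1.51. Khnyn and Zc3hav1, which act with TRIM25 against CpG-rich viral RNA, fell by 1.19 and 0.44. Zc3hav1 is named for its tie to TRIM25 and not by size of change.

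Sensors and adaptors of viral nucleic acid moved both ways, with 4 of 15 higher and 6 lower (median -0.15), where 26.3% of all genes were higher and 26.2% lower. Ddx58, which encodes RIG-I, rose by 0.52 (adjusted p = 0.0056) and Tmem173, which encodes STING, by 0.75 (adjusted p = 0.00033). Ikbke fell by 0.84 (adjusted p = 0.00067), Traf6 by 0.66 (adjusted p = 0.0011) and Nlrp3 by 2.60. Tab2 and Tab3, which encode protein targets of TRIM30a, fell by 0.51 (adjusted p = 0.0059) and 0.52 (adjusted p = 0.040). Ddx58, Tab2 and Tab3 are named here for their ties to TRIM25 and TRIM30a and not by size of change. Over the list, log2 fold changes ran from -2.60 to 1.48. Protein was not measured, and a link of these RNA levels to TRIM30a was not tested. With the length trend removed, Tab3 was at -0.27. Of 9 ubiquitin-conjugating E2 enzymes that serve TRIM ligases 2 rose and 2 fell (44.4% called, against 52.5% of all genes). Ube2n, which makes K63-linked chains, was at -0.069 and did not pass, and its cofactor Ube2v2 fell by 0.91 (adjusted p = 0.0016). Of 8 partners of the TIF1 proteins 1 rose and 2 fell (37.5% called, against 52.5% of all genes). Setdb1, the methyltransferase that TRIM28 recruits, did not pass at -0.11, while Cbx5, which encodes the heterochromatin protein HP1α, fell by 0.77 and was at -0.37 with the length trend removed. Mdm2, which encodes a ligase for p53, fell by 1.08 (adjusted p = 3.5e-05). Trp53, which encodes p53, rose by 0.37 (adjusted p = 0.032).

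The study set cutoffs of a log2 fold change over 1 in size and an unadjusted p under 0.05 on DESeq2 results. Applied here to the edgeR test after its filter, they gave 2 of 48 members higher (Trim5 and Trim14), against 6.38% of all genes tested. They gave 6 of 48 lower (Trim6, Trim33, Trim43a, Trim43c, Trim66 and Trim71), against 8.53% of all genes tested. Of the named members, Trim14, Trim43a and Trim66 had passed the filter on low counts through the group where each is higher. None of the 4 interferon-linked members passed these cutoffs, as each was below a log2 fold change of 1.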

How the data were processed

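Members and lists were chosen with earlier results of these data known. The authors sequenced poly(A) RNA of 6 BV2 libraries and deposited raw read counts per Ensembl gene. Without stating roles, the submitters' processing notes list HISAT2 2.0.5, HTSeq 0.9.1, cutadapt 1.15, DESeq 1.30.0 and GRCm39. For the annotation release, strand setting and shared reads, nothing is given in the sources used here. Columns of sh-TonEBP do not name TonEBP and were assigned as the shRNA that is not the control. Symbols matched 21795 of 21899 identifiers. Counts passed filterByExpr, TMM and the quasi-likelihood test of edgeR 4.0.16 in R 4.3.3 with robust dispersions, 11943 genes in all, called at an adjusted p under 0.05. The step was tested on simulated data. Replicates differed by more than sampling noise, with a chi-square per degree of freedom of 5.545 to 30.9. Transcript lengths, shared windows and exon overlaps came from GENCODE M21 on GRCm38, and promoters from RefSeq on GRCm38.p6, an older build than that of the counts. Values in every library were given for the interferon-linked and TIF1 members and for called members with a log2 fold change of at least 1 in size. Alternatives were DESeq2 1.42.0, RLE factors, library totals, other filters, a replicate block, leaving out each library, the study's cutoffs and a length trend. Protein identities were not analysed here. A single listed gene is not reported here by name.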

Additional observations from a re-analysis of the deposited data

How the results depend on the processing

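Of the 20 called members 12 kept their direction and their call in all 12 alternative fits, namely Trim6, Trim14, Trim21, Trim24, Trim25, Trim28, Trim33, Trim39, Trim44, Trim47, Trim66 and Trim71. The other 8 kept their direction in those fits. DESeq2 did not call Trim34a and Trim36 and called Trim23 as lower. With the filter of a mean of at least 1 CPM, Trim80 gained a call as lower. RLE factors, library totals and no filter lost 0 calls. Leaving out each library gave 5 to 10 members higher, 7 to 14 lower (14 without sh-TonEBP replicate 3, where Trim17, Trim23, Trim43b and Trim68 gained a call as lower and Trim41 as higher), 2 to 4 interferon-linked members higher, 0 interferon-linked members lower, and a median log2 fold change of -0.16 to -0.075 over the TRIM members. The median log2 fold change of all genes then ran from -0.0100 to 0.0046. At the study's cutoffs 2 members were higher and 6 lower, 0 interferon-linked members were higher, and 762 of all genes were higher and 1019 lower. With the length trend removed, the median was 0.036 over the members and -0.066 over the members other than the interferon-linked, and the log2 fold change of Trim56 turned to 0.10. The median over all genes was -0.038 by DESeq2 and -0.024 with no filter. Members near 0 that did not pass changed sign. The log2 fold change of Trim59 was -0.0022 with the replicate block and ran from -0.090 to 0.13 when each library was left out, with -0.030 without sh-NC replicate 3 and -0.012 without sh-TonEBP replicate 2. The log2 fold change of Trim12a ran from -0.34 to 0.0065 and the log2 fold change of Trim46 from -0.15 to 0.037, both above 0 without sh-NC replicate 3. The cause was not tested in these cases, beyond the fewer libraries of the reduced fits.

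The replicate numbers were shared between the groups, but deviations of same-numbered libraries correlated at 0.18, 0.056 and -0.072, so the numbers were not taken as pairs. With the replicate block 10 members were higher and 12 lower, as Trim23 and Trim43a gained a call. Depth limits the 20 members under the filter, and 10 of the 20 called members stood under 10 CPM in both groups.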
